A study of Homo sapiens with 6 samples.

Results

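The genes described here are NFE2L2, which encodes the transcription factor NRF2, and 8 antioxidant genes known as its targets: NQO1, HMOX1, GCLC, GCLM, TXNRD1, SRXN1, AKR1C1 and AKR1B10. They were chosen by gene symbol, and all 9 were found among the 26025 genes of the deposited table. RNA-seq was performed on NCI-H1299, an established line of human lung carcinoma cells (non-small cell type), in 3 Ctrl libraries and 3 libraries of cells treated with 10 µM norepinephrine (NE) for 48 h. Both groups were first starved for 8 to 12 h in DMEM and then kept in medium with 2% FBS. The vehicle of the Ctrl cells is named as DMSO in the sample titles and as PBS in the treatment protocol. The labels do not say whether the replicates were separate cultures, so the tests measure only the spread between these libraries.

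NRF2 is the main switch of the antioxidant response. In unstressed cells the adaptor KEAP1 brings it to a CUL3 ubiquitin ligase that marks it for breakdown. When oxidants or electrophiles modify KEAP1, NRF2 accumulates, pairs with a small MAF protein and binds antioxidant response elements in the DNA of its targets. Because this control acts largely on the protein, the level of NFE2L2 mRNA is not a measure of NRF2 activity. Lung cancers are known for frequent mutations that free NRF2 from KEAP1.

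The core of the antioxidant response element, TGACNNNGC on either strand, was looked for in the 250 bases before each RefSeq transcription start (GRCh38.p14). Windows were found for 7 of the 9 genes, and 2 of them, GCLM and TXNRD1, held the core, TXNRD1 before both of its starts. Counted by window, 3 of the 9 windows of the members held it, and 10.9% of all 35116 windows. The stricter form TGACTCAGC and the cAMP response element TGACGTCA, each read on both strands, were in 0 of the members' windows and in 0.456% and 1.65% of all windows. Windows of HMOX1 and AKR1B10 were not analysed here. Sites farther from the start, or after it, were not looked for. A window without a match thus does not show that a gene lacks the element. Sites were also looked for in KEAP1 and in MAFF, which encodes a small MAF protein. A window of MAFF held the core at 114 to 122 bases and TGACGTCA at 47 to 54 bases before the start. The matches of GCLM and TXNRD1 are shown with the nearer of 2 matches of KEAP1. Each sequence runs 5′ to 3′ on the strand of the gene with the 9 bases of the match in capitals, and a match is a description of the letters, not a bound site.
GCLM (chr1:93909446-93909474, minus strand, match 26 to 34 bases before the start): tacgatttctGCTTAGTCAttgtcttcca
TXNRD1, upstream start (chr12:104215670-104215698, plus strand, 91 to 99 bases before it): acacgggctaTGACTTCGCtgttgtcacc
TXNRD1, downstream start (chr12:104286920-104286948, plus strand, 94 to 102 bases before it): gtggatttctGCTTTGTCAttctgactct
KEAP1 (chr19:10502784-10502812, minus strand, 23 to 31 bases before the start): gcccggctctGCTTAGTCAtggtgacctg

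The deposited values are normalized counts, that is, reads per gene divided by 1 size factor per library. Between 16852751 and 17979206 reads on genes were recovered per library. Ctrl replicate 3 stood apart, with 7305 genes at 0 reads against 3954 to 4833 in the other libraries. Genes with GC-rich exons tended to be lower in NE libraries (Spearman correlation of GC content and NE minus Ctrl difference -0.64, across 14955 genes), and Ctrl replicate 3 differed from the other Ctrl libraries in the same way, at -0.51. Genes share libraries and are not independent, so both are descriptions. Printed changes of tested members and other genes are therefore given also after the trend of each library on GC content was removed. Levels and ratios within a library are not corrected. VIM, KRT8 and KRT18 were expressed at 5232 normalized counts or more in each library, and the leukocyte and endothelial markers CD68, PECAM1 and CDH5 were at 36.6 or less.

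To determine whether NE changed NFE2L2 and its targets, limma was fitted to log2(value + 1) of the 15013 genes whose mean normalized count was at least 10. In bulk RNA, fewer cells of a kind and less RNA per cell cannot be told apart. A gene was called higher or lower at a Benjamini-Hochberg adjusted p under 0.05. Of the 9 members, 8 were tested, and each of these had at least 28.1 normalized counts in every library. NFE2L2, GCLC, GCLM, TXNRD1 and AKR1C1 were upregulated, HMOX1 and NQO1 were downregulated, and SRXN1 was not called. Thus 5 were higher, where 24.6% of all genes tested were, and 2 were lower, where 25.5% were. When a log2 fold change of 1 or more in size was required as well, NFE2L2 was the 1 upregulated member and HMOX1 the 1 downregulated member, where 7.47% and 6.55% of all genes were called. The median log2 fold change of the 8 members was 0.54, beside 0.01 for all genes tested. The libraries of the groups did not overlap for 7 of the 8 members, as for 58.6% of all genes tested. In 5 of the 7 called members Ctrl replicate 3 was the Ctrl library nearest to the mean of the NE libraries. How often this held over all genes was not counted, so it is not read as a trait of the members.

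**Figure D1:**
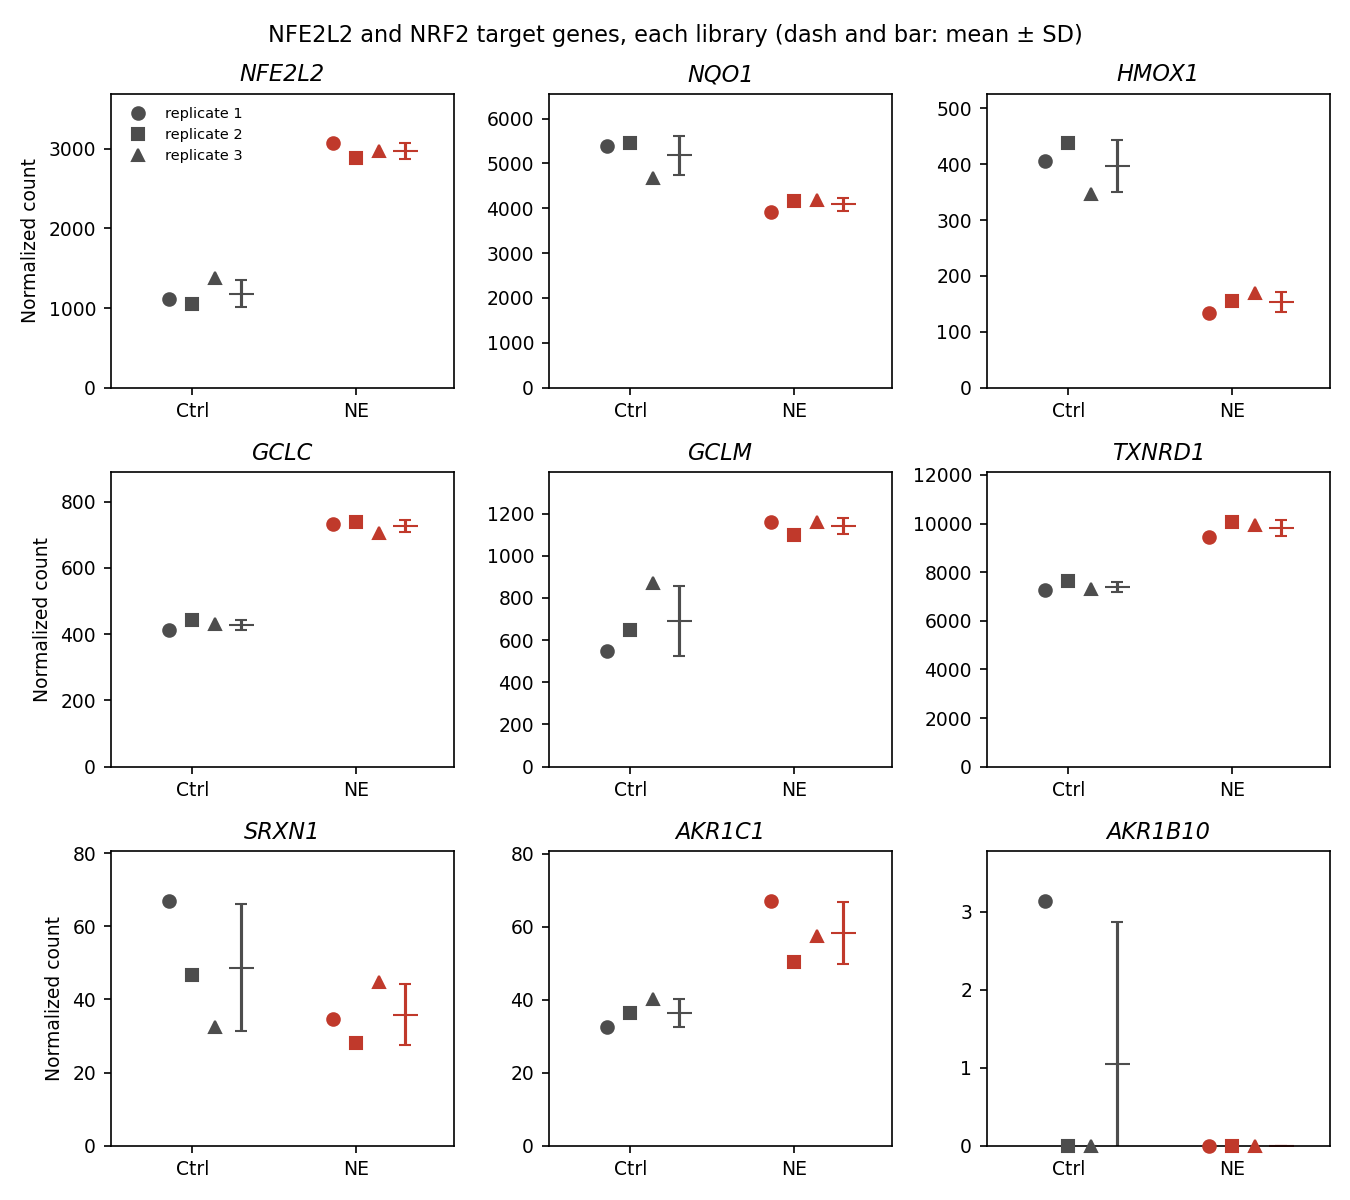
Normalized count of each member (vertical axes, starting at 0) in the 3 Ctrl libraries (grey) and the 3 NE libraries (red), with the mean ± SD to the right of the points. The groups are apart for 7 genes, SRXN1 overlaps, and AKR1B10 has reads in Ctrl replicate 1 only.

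NFE2L2 (ENSG00000116044) is a minus-strand gene at 177218667 to 177392756 of chromosome 2 (hg38, as are all gene positions here). Its normalized counts were 1113, 1050 and 1371 in Ctrl replicates 1, 2 and 3, and 3078, 2878 and 2973 in the NE replicates. Every NE library was thus above every Ctrl library, and Ctrl replicate 3 was the highest of its group. The mean rose from 1178 ± 169.8 (SD, n = 3) to 2976 ± 99.9 (SD, n = 3), a 2.54-fold increase (log2 fold change 1.35, standard error 0.121, adjusted p = 9.85e-05 from limma). NFE2L2 was called without each library in turn, with log2 fold changes from 1.27 to 1.46. The GC correction left a log2 fold change of 0.92 (adjusted p = 0.000101 from limma), a 1.89-fold increase. Of the bases in its annotated exons, 13.6% lie under exons of another gene on the same strand and 24.8% on the opposite strand, where reads cannot be assigned to 1 gene without strand.

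KEAP1, the adaptor that holds NRF2 in check, had 2655, 2520 and 2663 normalized counts in Ctrl and 1702, 1676 and 1478 in NE-treated cells. It fell in groups that did not overlap, and limma put the log2 fold change at -0.69 with a standard error of 0.102 (adjusted p = 0.000703). KEAP1 is rich in GC, 63.4%, and the GC correction brought it to -0.07 (adjusted p = 0.742 from limma). The ratio of the normalized counts of NFE2L2 to those of KEAP1, which does not depend on the scaling between libraries, was 0.419, 0.417 and 0.515 in Ctrl and 1.81, 1.72 and 2.01 in NE libraries. The ratio is not free of the GC trend, since NFE2L2 has 42.4% GC. Both GC contents, and the correction, rest on all merged exons of a gene, and which transcripts the cells make was not measured. From the fitted changes the ratio rose 4.11-fold as deposited and 1.98-fold after the GC correction. KEAP1 and this ratio were singled out after the values were seen.

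GCLC and GCLM encode the catalytic and the modifier subunit of glutamate-cysteine ligase, the rate-limiting enzyme of glutathione synthesis. Both were upregulated by NE. GCLC (ENSG00000001084, chromosome 6, 53497341 to 53616970) had 413.7, 443.8 and 429.2 normalized counts in Ctrl and 733.2, 740.0 and 706.4 in NE libraries. The spread within each group was small beside the gap between them, and the increase was 1.69-fold (log2 fold change 0.76, standard error 0.110, adjusted p = 0.00066 from limma). GCLC was called without each library in turn, and after the GC correction at 0.48 (adjusted p = 0.00484 from limma).

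GCLM (ENSG00000023909, chromosome 1, 93885199 to 93909456) had 547.7, 648.1 and 873.1 normalized counts in Ctrl and 1161, 1096 and 1162 in NE libraries. Ctrl replicate 3 was the highest of the Ctrl libraries, between the other two and the NE libraries. The increase was 1.68-fold (log2 fold change 0.75, standard error 0.164, adjusted p = 0.00476 from limma), and it was 0.93 without Ctrl replicate 3. With 38.6% GC, GCLM is the poorest in GC of the members, and after the GC correction it was no longer called (log2 fold change 0.12, adjusted p = 0.439 from limma). The ratio of GCLC to GCLM normalized counts averaged 0.644 ± 0.137 over the Ctrl libraries and 0.638 ± 0.0341 over the NE libraries (SD, n = 3 each), a difference smaller than the spread.

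TXNRD1 encodes the cytosolic thioredoxin reductase, which returns oxidized thioredoxin to its active form with NADPH. TXNRD1 (ENSG00000198431, chromosome 12, 104215779 to 104350307) had 7259, 7618 and 7310 normalized counts in Ctrl and 9440, 10081 and 9918 in NE libraries. The groups were well apart, and the increase was 1.33-fold (log2 fold change 0.41, standard error 0.0888, adjusted p = 0.00466 from limma). TXNRD1 was called without each library in turn. After the GC correction it was 0.27 (adjusted p = 0.0286 from limma), and with length corrected as well 0.21 (adjusted p = 0.0655 from limma). With the GC correction and a library left out, a setting added after the data were seen, it was called without Ctrl replicate 3 and without NE replicate 1, and not in the other 4 fits. Quantile normalization gave 0.69.

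SRXN1 encodes sulfiredoxin, which repairs overoxidized peroxiredoxins. Its normalized counts (ENSG00000271303, chromosome 20, 646615 to 653200) were 67.0, 46.7 and 32.3 in Ctrl and 34.6, 28.1 and 44.8 in NE libraries. The groups overlapped, and the log2 fold change was -0.40 (standard error 0.332, adjusted p = 0.343 from limma). After the GC correction it was -0.15 (adjusted p = 0.733 from limma). The values do not show that SRXN1 stayed the same. Of its 2528 exon bases, 90.7% lie under exons of ENSG00000270299, a gene on the same strand that had 3.92 to 8.89 normalized counts, and by the usual counting rule reads in shared exons go to neither gene. The part of this overlap in the low counts was not tested.

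NQO1 encodes a quinone reductase and HMOX1 the inducible heme oxygenase, and both are widely used as readouts of NRF2. Both were lower in NE-treated cells, opposite to NFE2L2. HMOX1 (ENSG00000100292, chromosome 22, 35380361 to 35394214) had 406.3, 438.6 and 346.9 normalized counts in Ctrl and 134.4, 155.9 and 169.1 in NE libraries. Every NE library was under every Ctrl library, and the mean fell from 397.3 ± 46.5 to 153.1 ± 17.5 (SD, n = 3 each). On the log2 scale the change was -1.37, with a standard error of 0.156 (adjusted p = 0.000247 from limma). HMOX1 was called without each library in turn, from -1.46 to -1.28. It is the richest in GC of the members, at 58.5%, and was called after the GC correction too, at -0.84 (adjusted p = 0.00137 from limma). No exon of another gene lies over its exons.

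NQO1 (ENSG00000181019, chromosome 16, 69706996 to 69726668) had 5395, 5466 and 4677 normalized counts in Ctrl and 3911, 4153 and 4192 in NE libraries. The groups did not overlap, but the decrease was small, -0.34 on the log2 scale with a standard error of 0.101 (adjusted p = 0.0198 from limma). It was not called without Ctrl replicate 1 (adjusted p = 0.0796), Ctrl replicate 2 (0.0966), NE replicate 1 (0.0593) or NE replicate 2 (0.0687), each from limma. Quantile normalization gave -0.11 (adjusted p = 0.374 from limma), and the GC correction gave a larger decrease of -0.59 (adjusted p = 0.00146 from limma). With the GC correction it was called without each library in turn. Exons of ENSG00000261602, on the opposite strand, lie over 19.4% of the NQO1 exon bases.

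AKR1C1 and AKR1B10 encode aldo-keto reductases, which reduce aldehydes and ketones, AKR1C1 also steroids. AKR1C1 (ENSG00000187134, chromosome 10, 4963253 to 4983283) had 32.5, 36.3 and 40.2 normalized counts in Ctrl and 67.2, 50.4 and 57.6 in NE libraries. The groups were apart at a low level, and limma gave a log2 fold change of 0.67 with a standard error of 0.245 (adjusted p = 0.0473). It was the weakest call. Leaving out any library but Ctrl replicate 3 ended it, with adjusted p from 0.0704 to 0.143 in these 5 fits of limma. It was also lost with edgeR (adjusted p = 0.0527), DESeq2 (adjusted p = 0.0682) and the GC correction (0.18, adjusted p = 0.608 from limma). AKR1C1 and its paralog AKR1C2 are near-identical in sequence, and of the stretches of read length of the canonical AKR1C1 transcript 9.83% occur unchanged in AKR1C2, so that the split of reads between them is uncertain. AKR1C2 had 34.6, 29.0 and 36.3 normalized counts in Ctrl and 51.4, 63.0 and 59.4 in NE libraries (log2 fold change 0.78, adjusted p = 0.0248 from limma), a call that was lost in 4 of the 6 fits without a library and with the GC correction (0.34, adjusted p = 0.343 from limma). The ratio of AKR1C1 to AKR1C2 averaged 1.10 ± 0.155 over the Ctrl and 1.03 ± 0.259 over the NE libraries (SD, n = 3 each).

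AKR1B10 (ENSG00000198074, chromosome 7, 134527567 to 134541412) was at the limit of detection. It had 3 reads in Ctrl replicate 1 (95% exact Poisson interval 0.619 to 8.77 reads, counting error only) and 0 reads in the other 5 libraries. The floor taken for a count of 0 was 3 reads per library, which is 2.74 to 3.11 normalized counts in these 5 libraries, and the exact Poisson interval of a count of 0 reaches 3.69 reads. No fold change was given. AKR1B1, its tested paralog and aldose reductase, averaged 1553 normalized counts in the Ctrl group and 1009 in the NE group (log2 fold change -0.62, adjusted p = 0.000971 from limma), and was not called after the GC correction (-0.27, adjusted p = 0.0795).

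**Figure D2:**
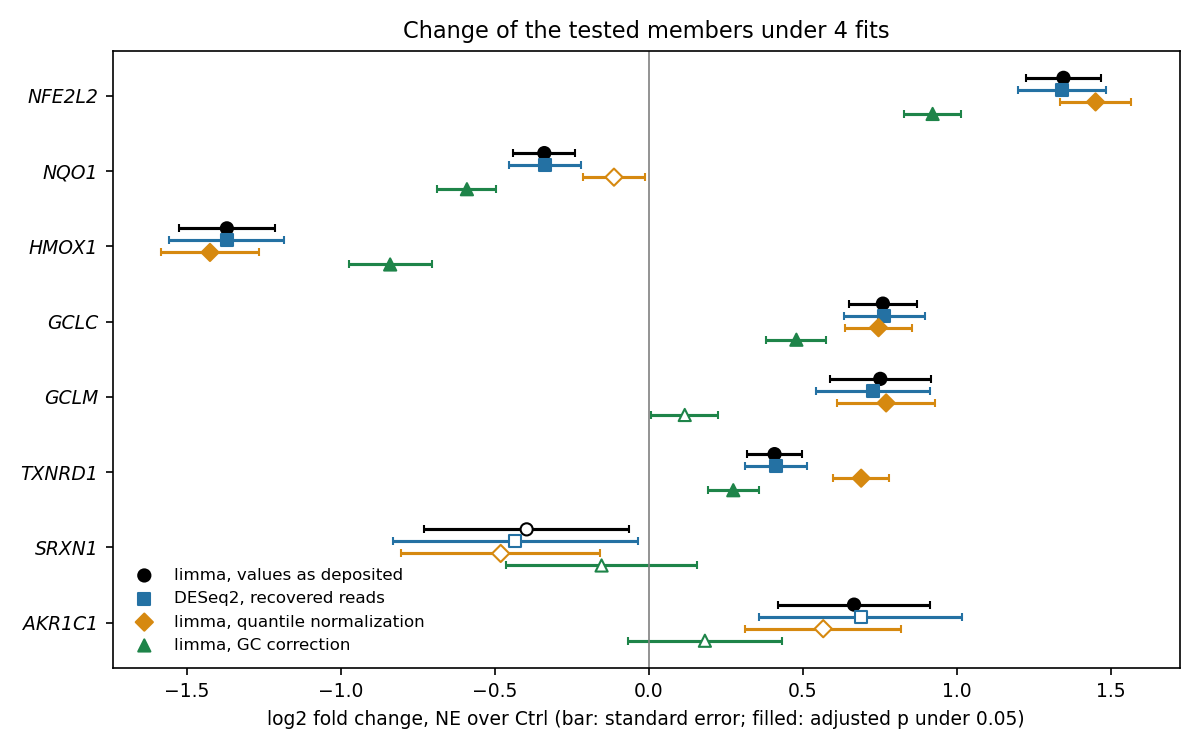
Log2 fold change of each tested member (horizontal axis) with its standard error in 4 fits; filled symbols have an adjusted p under 0.05. The signs of the 8 genes are the same in all 4 fits, while the GC correction brings GCLM from 0.75 to 0.12 and AKR1C1 from 0.67 to 0.18.

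Levels were compared between the genes per length, as FPKM recomputed from the recovered reads. The length was that of all merged exons of GENCODE v44, or that of the canonical transcript, because which transcripts the cells make was not measured. In Ctrl libraries NQO1 was at 96.7 ± 6.38 (SD, n = 3) and TXNRD1 at 61.2 ± 1.52 FPKM on merged exons, and at 114.0 ± 7.52 and 106.4 ± 2.63 on canonical transcripts, where they overlapped within their SD. These were the highest levels of the members on both lengths, and SRXN1 at 1.07 ± 0.368 and AKR1C1 at 0.230 ± 0.0284 FPKM on merged exons were the lowest tested on both. The place of NFE2L2 depended on the length. Its merged exons have 14975 bases and its canonical transcript 2446, and in Ctrl libraries it was at 4.38 ± 0.719 or 26.8 ± 4.40 FPKM, below or above HMOX1 at 9.55 ± 0.955 or 14.2 ± 1.42. In NE libraries NFE2L2 was at 12.1 ± 0.435 or 74.3 ± 2.66 FPKM, within the SD of GCLM on merged exons (12.8 ± 0.683) and above it on canonical transcripts (14.3 ± 0.759). In NE libraries TXNRD1 was above NQO1, at 89.4 ± 6.32 and 84.1 ± 6.54 FPKM on merged exons, within their SD. On canonical transcripts TXNRD1 was at 155.4 ± 11.0 and NQO1 at 99.1 ± 7.71 FPKM. HMOX1 and GCLM changed places on both lengths, but in Ctrl libraries they were within their SD on merged exons (GCLM 7.08 ± 1.85 FPKM). HMOX1 and GCLC also changed places on both lengths. On merged exons HMOX1 was above GCLC in Ctrl libraries (GCLC 2.76 ± 0.109 FPKM), and in NE libraries HMOX1 was at 4.07 ± 0.631 and GCLC at 5.15 ± 0.155. On canonical transcripts GCLC was at 6.29 ± 0.247 FPKM in Ctrl libraries, and in NE libraries HMOX1 was at 6.04 ± 0.937 and GCLC at 11.7 ± 0.354. These levels were not corrected for GC content.

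GC content separated the members that rose from HMOX1. The 5 upregulated members had 38.6% to 46.3% GC in their exons, below the median of 47.5% of the genes tested, and HMOX1 had 58.5%. NQO1 was the exception, with 44.8% GC and a decrease. After the GC correction 3 members, NFE2L2, GCLC and TXNRD1, were higher, where 12.9% of all genes were, and the 2 members HMOX1 and NQO1 were lower, where 18.9% were. The median of the 8 members was then 0.15, beside -0.04 for all genes. With the 2-fold criterion as well, 0 members were higher and 0 lower, where 3.42% and 2.62% of all genes were. Because the trend is found between Ctrl libraries as well as between the groups, how much of it came with NE was not tested.

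**Figure D3:**
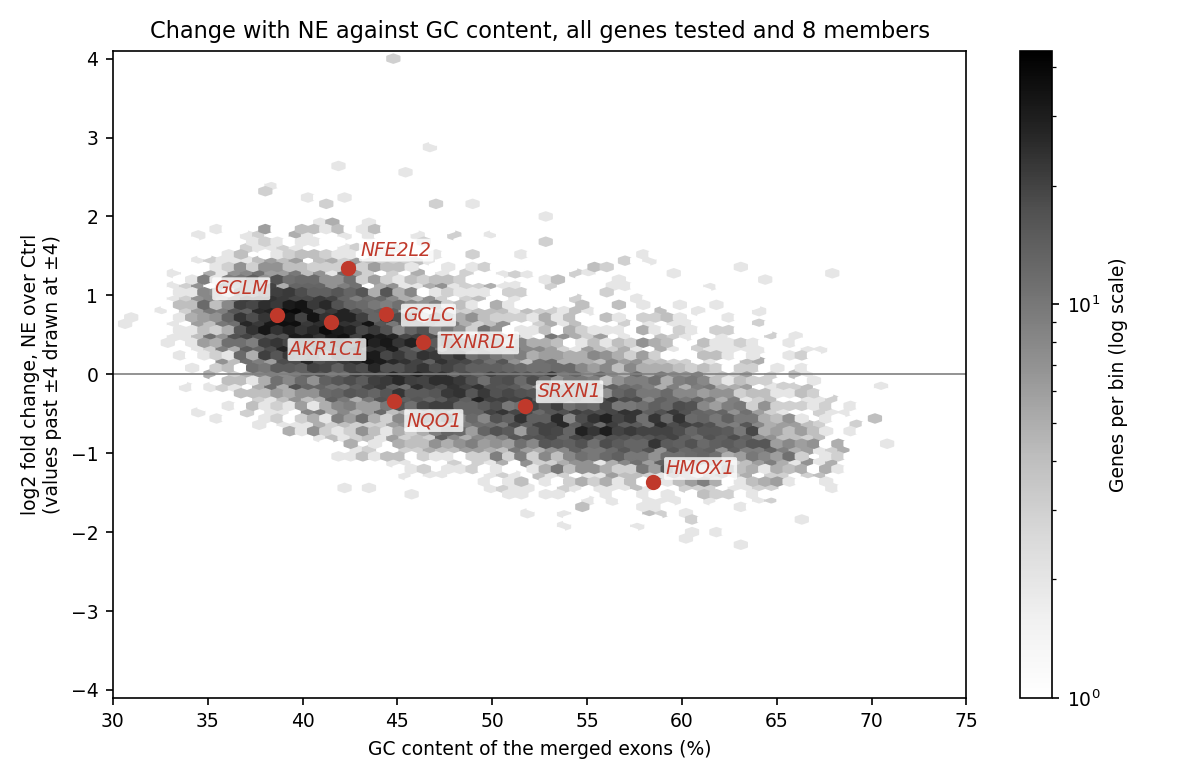
Log2 fold change with NE (vertical axis) against the GC content of the merged exons (horizontal axis, in percent), with all genes tested as grey bins and the 8 tested members in red. GCLM, AKR1C1 and SRXN1 lie within the dense band of genes of their GC content, and HMOX1 and NQO1 lie below it.

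The other genes of the pathway were taken from 6 lists by role, with 87 genes, of which 77 were tested. Among them 13 were higher and 35 lower with NE, 16.9% and 45.5%, where 24.6% and 25.5% of all genes tested were, and their median log2 fold change was -0.39. After the GC correction 10 of 76 were higher and 24 lower, 13.2% and 31.6%, where 12.9% and 18.9% of all genes were, and the median was -0.16. The counts of the single lists are to be read against the same shares of all genes. Genes called before and after the GC correction were not all the same, also where the counts were equal.

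Among 13 genes that control NRF2 or share its DNA sites, 4 were higher and 5 lower, 30.8% and 38.5%, with a median of -0.21. After the GC correction 4 were higher and 3 lower, with a median of -0.07. Of the higher genes BACH2 and BTRC stayed, CUL3 and GSK3B were lost, and MAFK and NFE2L1 were gained. Of the lower genes MAFF, RBX1 and NFE2L3 stayed, and KEAP1 and SQSTM1 were lost. RBX1 had a log2 fold change of -0.81 before the correction and -1.06 after it (adjusted p = 0.00205 and 0.000415 from limma). MAFF, a small MAF protein that pairs with NRF2, fell from 482.8, 468.7 and 431.2 to 168.0, 178.2 and 168.1 normalized counts (log2 fold change -1.42, adjusted p = 9.91e-05 from limma), and was called after the GC correction at -0.85. SQSTM1, the autophagy receptor p62 that can sequester KEAP1, fell by 0.93 on the log2 scale (adjusted p = 0.000213 from limma), and after the GC correction had a log2 fold change of -0.41 (adjusted p = 0.0503 from limma). BACH2, a repressor related to BACH1, rose from 24.1, 35.3 and 12.7 to 105.7, 111.4 and 85.9 normalized counts (log2 fold change 2.13, adjusted p = 0.00131 from limma), and was called after the GC correction at 2.05. BTRC, a ubiquitin ligase subunit that marks NRF2 independently of KEAP1, rose by 0.71 (adjusted p = 0.00287 from limma), and by 0.52 after the GC correction (adjusted p = 0.0116).

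Of 20 tested genes of glutathione synthesis and use, 2 were higher and 7 lower, with a median of -0.19, and after the GC correction 2 and 6, with a median of -0.11. GPX8 was higher in both, SLC7A11 only before the correction and ABCC1 only after it. GPX8, a peroxidase of the endoplasmic reticulum, rose by 0.94, and SLC3A2, the heavy chain of the cystine transporter, had a log2 fold change of -0.93 (adjusted p = 0.000939 and 0.000145 from limma). With GC corrected, GPX8 was at 0.34 and SLC3A2 at -0.63 (adjusted p = 0.0232 and 0.00149 from limma). SLC7A11, the light chain of the cystine transporter, went the other way, at 0.83 in overlapping groups (adjusted p = 0.0296 from limma). After the GC correction SLC7A11 was at 0.09 (adjusted p = 0.755 from limma). Of 13 genes of the thioredoxin and peroxide enzymes, 1 was higher and 9 lower, 7.69% and 69.2%, with a median of -0.63. After the GC correction 0 of 12 were higher and 8 lower, with a median of -0.42. The 1 higher gene was CAT, catalase, at 0.50 (adjusted p = 0.0087 from limma), which after the GC correction was at 0.15 (adjusted p = 0.318). TXNRD2, the mitochondrial counterpart of TXNRD1, had a log2 fold change of -0.99 (adjusted p = 0.00167 from limma), and of -0.53 after the GC correction (adjusted p = 0.00878). PRDX5, a peroxiredoxin, was at -1.02 (adjusted p = 0.0272 from limma), with 1046 normalized counts in Ctrl replicate 3 inside the NE range of 831.0 to 1067, and the call was kept without Ctrl replicate 3 but lost without any other library. With GC corrected, PRDX5 was at -0.44 (adjusted p = 0.163 from limma).

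Of 7 NADPH supply genes, 2 were higher and 4 lower, with a median of -0.52, and after the GC correction 1 and 1, with a median of -0.18. IDH1, the cytosolic isocitrate dehydrogenase, rose 1.99-fold and TALDO1, a transaldolase of the pentose phosphate pathway, had a log2 fold change of -0.77 (adjusted p = 0.000151 and 0.000379 from limma). With GC corrected, IDH1 had a log2 fold change of 0.72 and TALDO1 of -0.43 (adjusted p = 0.00031 and 0.0141 from limma). Of 10 heme and iron genes, 2 were higher and 6 lower, with a median of -0.72, and after the GC correction 1 and 4, with a median of -0.32. BLVRB, a biliverdin reductase, was at -1.05 and HMOX2, the constitutive heme oxygenase, at -0.93 (adjusted p = 0.000179 and 0.0191 from limma), HMOX2 being called without Ctrl replicate 3 and without NE replicate 2, but not without each of the other 4 libraries, nor after the GC correction (-0.49, adjusted p = 0.0932). BLVRB was called after it, also at -0.49 (adjusted p = 0.00633 from limma). SLC40A1, the iron exporter ferroportin, rose by 1.05 and TFRC, the transferrin receptor, by 0.48 (adjusted p = 0.0107 and 0.0055 from limma), and after the GC correction neither was called (0.57 and 0.04, adjusted p = 0.142 and 0.719 from limma). The 1 gene higher after the correction was ABCB6, with 0.98 to 26.5 normalized counts, which was not called before it. Of 14 carbonyl, quinone and xenobiotic enzymes, 2 were higher and 4 lower, with a median of -0.21, and after the GC correction 2 and 2, with a median of -0.12. The higher genes were AKR1C2 and ALDH3A2 before the correction, and NQO2 and EPHX1 after it. Among the 14 enzymes the lowest was AKR7A2, an aldehyde reductase, at -0.95 (adjusted p = 0.000263 from limma), and at -0.38 after the GC correction (adjusted p = 0.0139).

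**Figure D4:**
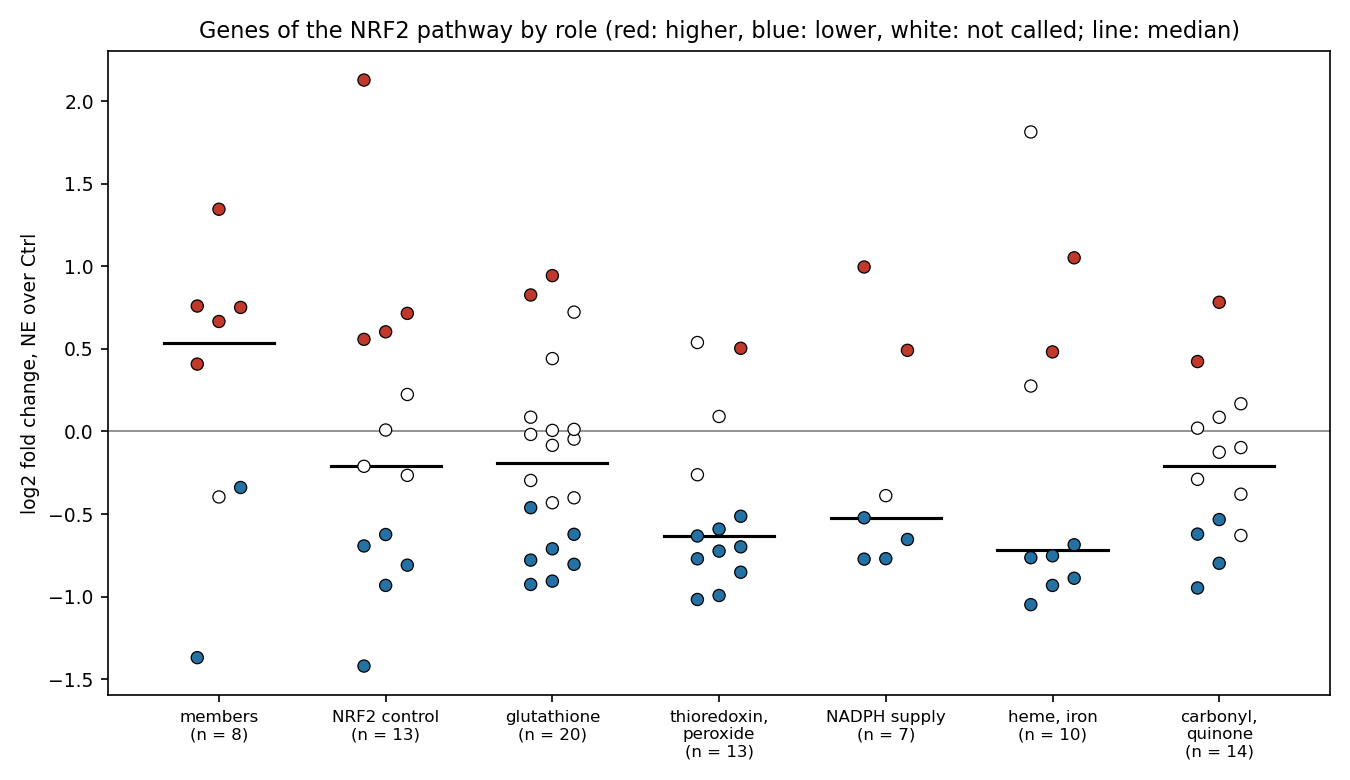
Log2 fold change with NE (vertical axis) of each tested gene of the pathway by role (horizontal axis), red where higher, blue where lower and white where not called, with the median of each list as a line. The median of the members is above 0 and those of the 6 other lists are below it.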

How the data were processed

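Per the submitters' processing notes and methods, the authors used HISAT2 2.0.5 (hg38), featureCounts 1.5.0-p3 and DESeq2. The annotation release and strand setting are not given in the sources used here. The methods name FPKM, but the deposited signal is a normalized count: divided by the worth of 1 read, 100% of the values above 0 and up to 1000 reads came out whole in each library (tolerance 0.1 reads).

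From these values, limma 3.58.1 (eBayes with trend) was run on log2(value + 1) over genes with a mean of at least 10. Fold changes on this scale understate changes of low genes. For 3 against 3 libraries an exact permutation test cannot go below p = 0.1. The GC correction subtracted, in each library, a natural spline (5 degrees of freedom) on the GC content of exons of GENCODE v44 (25813 of 26025 genes matched). Recovered reads were tested with edgeR 4.0.16 and DESeq2 1.42.0.

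Members, lists and settings were chosen with earlier results of these data known. Named genes were the members, list genes past the 2-fold threshold, the next largest rise and fall per list, and paralogs of AKR1C1 and AKR1B10. Outside this rule, SLC7A11, RBX1, NFE2L3 and some genes whose higher call came or went with the GC correction were named. In data simulated for NE against Ctrl, limma recovered 97% of changed genes (15033 tested, log2 change 1.5) with 5 unchanged genes called. With a GC trend added to the simulated data, 3804 unchanged genes were called (14970 tested), and 4 after the GC correction (14908 tested). The added trend was a smooth function of GC content, put alike on all NE libraries and on no Ctrl library. Its removal was thus fixed by the design. The simulation held no trend in Ctrl replicate 3 and no GC-linked change by NE, so it does not show how the correction does with these data. A marker of the line is not reported here.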

Additional observations from a re-analysis of the deposited data

How the results depend on the processing

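NFE2L2, HMOX1 and GCLC kept their direction and an adjusted p under 0.05 with each pseudocount, filter, tool, normalization, correction, replicate block and left-out library run. Of the members, 5 were higher and 2 lower. The number higher was 4 with no filter, with a mean of at least 50, with quantile normalization, with edgeR and with DESeq2. Of all genes, 3615 of 26025 were higher with no filter and 3461 of 11949 with a mean of at least 50. Of 15013 genes tested, 3774 were higher with quantile normalization, 3577 with edgeR and 3725 with DESeq2. Without a library the number of members higher was 4 to 5, and 5 only without Ctrl replicate 3. The number of members higher was 3 with the GC correction, 2 with GC and length corrected, and 1 with the 2-fold criterion. Of 14955 genes tested, 1934 were higher with the GC correction and 1752 with GC and length corrected. With the 2-fold criterion 1121 of 15013 genes were higher. With the GC correction and a library left out, added after the data were seen, the number of members higher was 2 to 3. Of all genes, 1167 of 14946 (without NE replicate 2) to 2836 of 14999 (without Ctrl replicate 3) were higher. In these fits SRXN1 turned to 0.057 without Ctrl replicate 1 and 0.018 without NE replicate 2. The number of members lower was 1 with quantile normalization and 1 with the 2-fold criterion. It was 1 to 2 without a library (1 without Ctrl replicate 1 or 2 or NE replicate 1 or 2). Of 15013 genes tested, 3795 were lower with quantile normalization and 983 with the 2-fold criterion. The members' median of 0.537 was 0.408 with no filter, 0.627 with quantile normalization, 0.149 with the GC correction and 0.127 with GC and length corrected. Of the other pathway genes, 2 were higher and 3 lower with the 2-fold criterion. With GC and length corrected 22 of them were lower, where 2860 of all 14955 genes were, and TFRC turned to -0.088. Without a library 9 to 18 other pathway genes were higher and 28 to 43 lower, while 18.1% to 31.9% and 19.7% to 32.5% of all genes were. The 2-fold criterion can only lower the counts. With a mean of at least 50, AKR1C1 and SRXN1 were below the filter and not tested. With no filter AKR1B10 entered as well, and the median was the value of TXNRD1. For the other changes the cause was not tested. A pairing of libraries by replicate number was not seen (correlations of deviations -0.163, 0.080 and -0.151). Because Ctrl replicate 3 stood apart, these values cannot exclude one. With a replicate block 4 members were higher and 2 lower, AKR1C1 being lost, and 10 and 34 other pathway genes. Of 15013 genes tested, 3150 were then higher and 3358 lower. Counting error is largest for SRXN1, AKR1C1 and AKR1B10, with at most 68 reads in a library.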
